A study of Homo sapiens with 5 samples.

Results

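EGFR, the receptor tyrosine kinase for epidermal growth factor, and the 7 genes that encode its ligands (EGF, TGFA, HBEGF, AREG, EREG, BTC and EPGN) were examined for binding of Fra-1, MYC and E2F1 as measured by ChIP-Seq. These are 8 of the 20098 protein-coding genes annotated on chromosomes 1 to 22 and X, and they were chosen by name. The cells, untreated according to the labels, were LM2 cells, a lung-metastatic derivative of the triple-negative breast cancer line MDA-MB-231, so that all values come from a single subline. Each factor was measured in 1 library, with peaks called against 1 shared input DNA library. After filtering, the Fra-1 library held 12931227 tags, that of MYC 23853621 and that of E2F1 18056168, and the input 10758036. There was no replicate spread, and no difference between genes or factors was tested. An EZH2 library from the same cells was not used here, and other factors of the study were likewise not analysed. For each gene, peaks were counted in promoter windows (2 kb upstream to 2.5 kb downstream of any annotated TSS), in the rest of the gene body, and in flanks of 50 kb, which together are called the territory. A peak's strength is its fold enrichment, the pileup of ChIP fragments at the summit relative to the local input background, and −log10 q is the peak caller's significance for that enrichment. Depth differed between the libraries, and values of different factors are therefore set side by side only as a description.

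EGFR ligands are made as membrane-anchored precursors, are released by metalloproteases, and bind the extracellular part of the receptor, which then dimerises and signals through RAS and ERK among other routes. TGF-α (TGFA), amphiregulin (AREG), epigen (EPGN) and EGF bind EGFR, whereas HB-EGF (HBEGF), betacellulin (BTC) and epiregulin (EREG) also bind the related receptor ERBB4. ERK signalling raises the amount of AP-1 factors, which include Fra-1, and AP-1 dimers of FOS and JUN proteins recognise the sequence TGACTCA, which on the other strand is read as TGAGTCA. MYC binds the E-box CACGTG with its partner MAX, and E2F1 is a cell cycle regulator found mostly at promoters.

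The sequences below are shown because they lie under the peaks on which the account of each gene turns. They cover 50 bp to either side of the summit of the strongest Fra-1 peak in the promoter or gene body of each gene, or in the flank of HBEGF and AREG, where the gene itself had none. All are from the GRCh37 genome, on the plus strand. Capitals mark the AP-1 site in EGFR and BTC. In HBEGF and AREG, where no AP-1 site lay within 50 bp of the summit, they mark the word nearest the summit that is 1 base away from an AP-1 site. The windows of TGFA and EREG held neither and have no capitals.
EGFR, chr7:55200687-55200787: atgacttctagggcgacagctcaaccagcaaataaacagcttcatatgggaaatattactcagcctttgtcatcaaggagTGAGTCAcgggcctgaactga
BTC, chr4:75694223-75694323: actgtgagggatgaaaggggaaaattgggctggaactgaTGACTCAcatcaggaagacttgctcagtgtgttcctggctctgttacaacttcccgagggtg
HBEGF flank, chr5:139691751-139691851: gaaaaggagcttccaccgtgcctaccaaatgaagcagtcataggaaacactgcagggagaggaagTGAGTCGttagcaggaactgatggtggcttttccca
AREG flank, chr4:75338992-75339092: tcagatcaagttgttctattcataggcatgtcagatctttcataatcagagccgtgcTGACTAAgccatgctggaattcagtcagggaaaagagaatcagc
TGFA, chr2:70752308-70752408: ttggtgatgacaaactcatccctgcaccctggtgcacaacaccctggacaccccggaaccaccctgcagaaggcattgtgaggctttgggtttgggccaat
EREG, chr4:75240861-75240961: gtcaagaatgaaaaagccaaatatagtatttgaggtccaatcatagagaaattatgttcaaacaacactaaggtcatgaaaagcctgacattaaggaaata
An AP-1 site lay within 50 bp of 9222 of the 17311 Fra-1 summits on chromosomes 1 to 22 and X (53.3%, 95% Wilson confidence interval 52.5 to 54.0%). Of the 24 Fra-1 peaks in the territories of the 8 genes, 10 had one (41.7%, 24.5 to 61.2%). All intervals given are of this kind and allow for counting error alone. The AP-1 sites were unevenly spread, at 7 of 12 Fra-1 peaks of EGFR (58.3%, 31.95 to 80.7%) and at 3 of 12 of the ligand genes (25%, 8.89 to 53.2%), and the intervals of these shares overlap. Of the 14 Fra-1 peaks without an AP-1 site, 10 held a word 1 base away from it (71.4%, 45.4 to 88.3%). Such words lay in 65.6% (64.5 to 66.6%) of all Fra-1 windows without the site, and in 27.3% (26.7 to 28.0%) of windows of the same length 2 kb away that lacked it.

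In all, the territories held 77 peaks, of which 24 were Fra-1, 2 were MYC and 51 were E2F1. EGFR held the largest number for Fra-1 (12) and for E2F1 (23) among the 8 genes, and EGF held none of any factor. An E2F1 promoter peak was found at 5 of the 8 genes, namely EGFR, TGFA, HBEGF, EREG and BTC, a share close to the 61.3% of protein-coding genes with such a peak. In all counts of promoters and gene bodies AREG stands as a gene without a peak, although few tags can be placed uniquely there. A Fra-1 promoter peak was found at EGFR and BTC, 2 of 8 genes, against 13.2% of protein-coding genes. Both rested on internal start sites, and with canonical start sites alone, which were tried after these values were seen, 0 of 8 genes had one, against 7.2%. For E2F1 the same 5 genes were left, against 57.3%. No MYC promoter peak was found at any of the 8 genes, against 17.8% of protein-coding genes. In promoter or gene body, 4 of 8 genes had a Fra-1 peak (EGFR, TGFA, EREG and BTC, background 26.2%), 1 had a MYC peak (EGFR, background 19.6%) and 5 an E2F1 peak (background 66%). In the whole territory, 6 of 8 genes had Fra-1 (background 55.8%), 2 had MYC (EGFR and HBEGF, background 39.5%) and 7 had E2F1 (background 83%). Territories differ in length from 108 kb for EPGN to 293 kb for EGFR, and longer territories can hold more peaks. The median number of territory peaks over the 8 genes was 2.5 in the Fra-1 list, 0 in that of MYC and 5.5 in that of E2F1, against 1, 0 and 3 over all protein-coding genes.

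**Figure D1:**
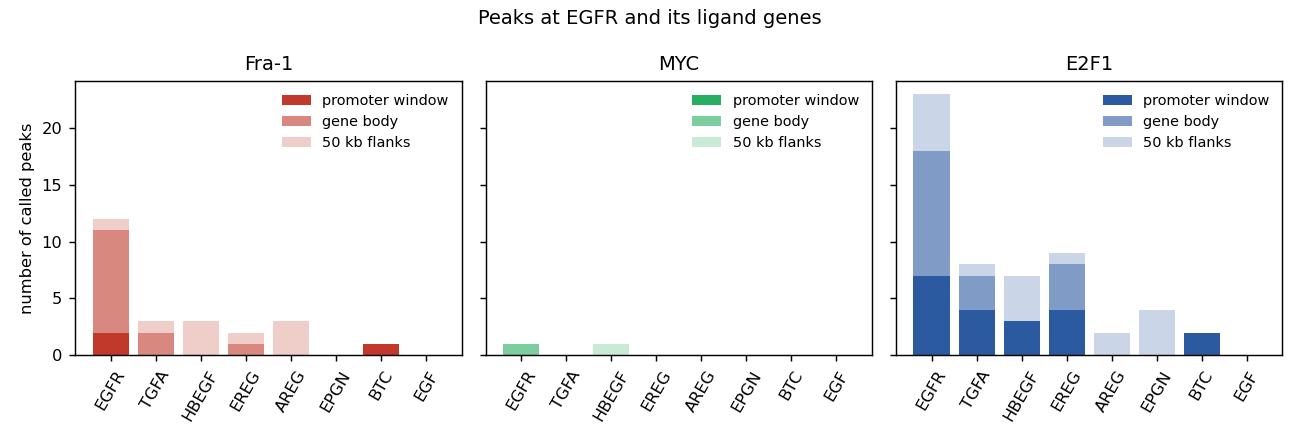
Number of called peaks (vertical axis) of Fra-1, MYC and E2F1 (one panel per library) at each of the 8 genes, with dark bars for promoter windows, lighter bars for the rest of the gene body and the lightest for the 50 kb flanks. EGFR stands highest for Fra-1 (12 peaks) and E2F1 (23 peaks), MYC has 1 peak each at EGFR and HBEGF, and EGF is empty in all panels; 4 E2F1 peaks at EREG are drawn again in the flank of EPGN.

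EGFR lies on the plus strand of chromosome 7 from 55086710 to 55279321 (GRCh37). Fra-1 was found inside the gene, mostly in intron 1, and not at its canonical TSS, whereas E2F1 was found at both. Of the 11 Fra-1 peaks in the gene, 9 had their summit in intron 1 of the canonical transcript, 1 in intron 8 and 1 in intron 20. Intron 1 spans 123 kb and makes up 63.8% of the gene. Of the 20098 protein-coding genes, 51 (0.254%) had as many Fra-1 peaks in promoter or gene body as EGFR, and 35 (0.174%) as many E2F1 peaks (18). EGFR is a long gene, so density was also compared. Among 3660 protein-coding genes of at least 100 kb, the median density was 0.445 Fra-1 peaks per 100 kb, and the density at EGFR was 5.71, a level reached by 23 of these genes, EGFR included. For E2F1 the density at EGFR was 9.35 peaks per 100 kb against a median of 0.961, and 28 of these genes reached it. Binding was also counted per AP-1 site. Of 41 AP-1 sites in the EGFR gene body 9 lay in a Fra-1 peak (21.95%), and of 55 in its territory 10 did (18.2%). On chromosomes 1 to 22 and X, inside and outside genes, 12698 of 456218 sites did (2.78%). In gene bodies of the ligands the counts were 1 of 4 at BTC, 1 of 7 at EREG and 0 of 17 at TGFA. They were 0 of 4 at HBEGF, 0 of 2 at AREG and 0 of 15 at EGF, and EPGN had no site.

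The strongest Fra-1 peak of EGFR, from 55200551 to 55200911, had its summit in intron 1, 114027 bp downstream of the canonical TSS. Its pileup was 108, its fold enrichment 49.01 and its −log10 q 160.2, and it ranked 11 of 17320 in the whole Fra-1 list by fold enrichment. The AP-1 site printed above lies at 55200767 to 55200773, 33 bp from this summit. The E2F1 peak over it, from 55200062 to 55201986, had a pileup of 46 and a fold enrichment of 21.1, which ranked 6566 of 36933, and its summit was 30 bp from that of Fra-1. Thus the same element stood near the top of the Fra-1 list and much further down the E2F1 list. A second Fra-1 peak lay under the same E2F1 peak, from 55201487 to 55201731, with a pileup of 44 and a fold enrichment of 15.0. Further Fra-1 peaks of EGFR also had a fold enrichment over 12. The peak from 55223977 to 55224420 in intron 8 of the canonical transcript, where another transcript has an exon, had a fold enrichment of 15.4. The peak from 55254024 to 55254264 in intron 20 had 14.2, with an AP-1 site 6 bp from the summit. This one also lay in the promoter window of EGFR-AS1, a non-coding gene on the other strand, so that the peak cannot be assigned to either gene by position. The peak from 55133434 to 55133660 in intron 1 had 12.9, with an AP-1 site 1 bp from the summit. An E2F1 peak overlapped each of these, with fold enrichments of 14.5, 8.95 and 7.09 in the same order. The other 4 Fra-1 peaks of the gene outside promoter windows had fold enrichments between 6.71 and 10.9.

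The promoter windows of EGFR differed between its start sites. At the canonical TSS 6 E2F1 peaks lay side by side in a stretch of 2254 bp, from 55086256 to 55088509. From upstream to downstream their fold enrichments were 10.3, 6.76, 7.23, 6.45, 5.76 and 8.48. Their pileups ranged from 9 to 24 and their −log10 q from 5.25 to 15.8. The strongest, with its summit 247 bp upstream of the TSS, had a pileup of 14. Its fold enrichment of 10.3 was equalled or exceeded at 10314 of the 12321 protein-coding genes with an E2F1 promoter peak (83.7%), so that the E2F1 peaks at this promoter were low among promoters, and many. As many peaks in a canonical promoter window were found at 0.498% of protein-coding genes. The 6 peaks were 142 to 346 bp wide. Here, as in the counts and densities above, neighbouring calls were counted as separate peaks and were not joined. No Fra-1 or MYC peak was called in the canonical promoter window of EGFR. At an internal start site, a Fra-1 peak from 55177207 to 55177362 overlapped an E2F1 peak from 55177183 to 55177322. Both were weak, the Fra-1 peak at 4.41 and the E2F1 peak at 5.50 in fold enrichment. Another Fra-1 peak, from 55175783 to 55175903, lay 1581 bp from the same start site with a fold enrichment of 6.38. Both Fra-1 peaks had an AP-1 site within 25 bp of the summit. In the flanks of EGFR 1 Fra-1 peak was called, from 55053099 to 55053430, 33523 bp upstream of the canonical TSS, with a pileup of 34, a fold enrichment of 11.7 and an AP-1 site 25 bp from the summit. An E2F1 peak of 19.2 overlapped it with its summit 147 bp away, which was the second largest E2F1 value of EGFR after the 21.1 in intron 1. Further upstream lay an E2F1 peak of 4.61, whose window held an E-box. Past the 3′ end E2F1 peaks of 6.26, 12.6 and 13.9 lay in promoter windows of non-coding genes, the latter pair in that of ELDR. Inside the gene, E2F1 peaks of 9.25 and 9.19, at 33283 and 111867 bp downstream of the canonical TSS, differed in that a Fra-1 peak overlapped the first and none the second.

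**Figure D2:**
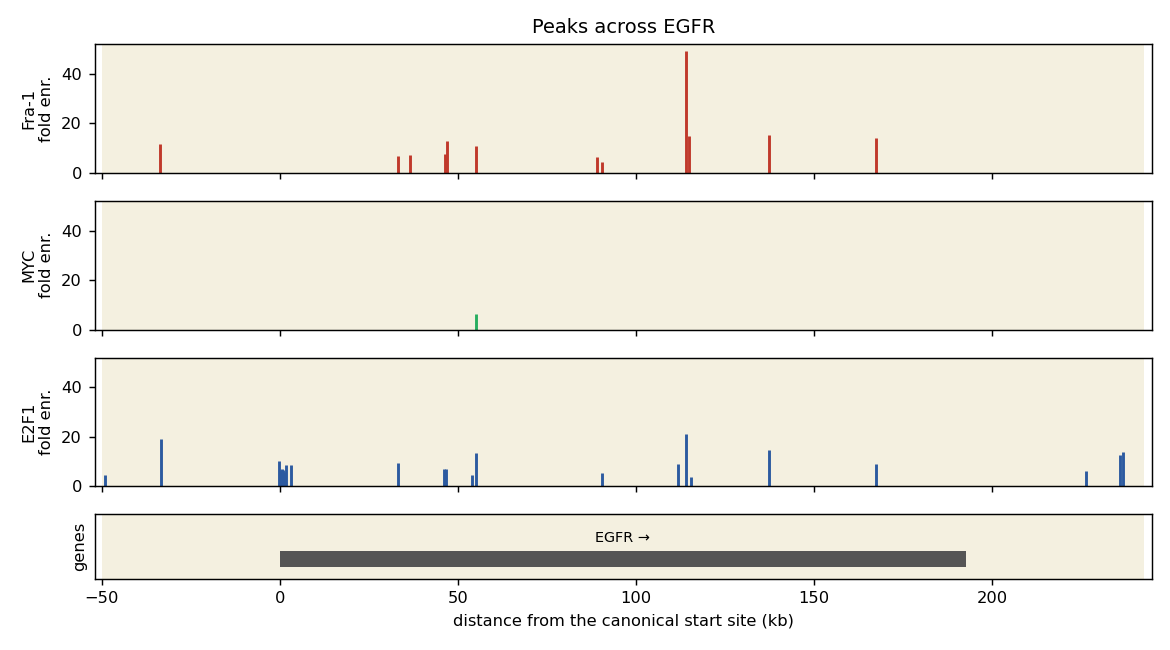
Fold enrichment of each called peak (vertical axis, linear) against the distance of its summit from the canonical EGFR start site in kb (horizontal axis), for Fra-1, MYC and E2F1, with the gene as a grey bar and the territory shaded. The tallest line is the Fra-1 peak of 49.01 in intron 1. The single MYC line stands near 55 kb, where Fra-1 and E2F1 lines also stand. At the start site (0 kb) lines appear for E2F1 and for no other factor.

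The single MYC peak of EGFR was called in intron 1, from 55141737 to 55141835, with a pileup of 16, a fold enrichment of 6.41 and a −log10 q of 6.94. This is close to the median of the MYC list (6.67). The peak overlapped a Fra-1 peak from 55141767 to 55141920 (fold enrichment 10.9) and an E2F1 peak from 55141383 to 55142190 (13.4). The MYC summit was 77 bp from that of Fra-1 and 48 bp from that of E2F1. The second MYC peak of the 8 territories, in the flank of HBEGF, was of the same kind. It ran from 139703123 to 139703222, had a pileup of 9, a fold enrichment of 6.63 and a −log10 q of 4.81, and overlapped a Fra-1 peak (fold enrichment 6.43, summits 25 bp apart) and an E2F1 peak (12.1, 31 bp apart). Both MYC windows are printed because they are the MYC windows of these genes, a choice made after their values were seen, and neither held an E-box within 50 bp of the summit.
EGFR intron 1, chr7:55141728-55141828: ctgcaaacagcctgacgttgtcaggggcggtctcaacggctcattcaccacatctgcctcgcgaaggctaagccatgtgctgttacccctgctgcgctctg
HBEGF flank, chr5:139703092-139703192: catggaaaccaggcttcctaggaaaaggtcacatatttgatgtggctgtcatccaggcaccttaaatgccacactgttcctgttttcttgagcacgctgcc
In the whole MYC list, 16.8% of summits (15.8 to 17.9%) had an E-box in this window, and 21.4% of peaks (20.2 to 22.5%) overlapped a Fra-1 peak.

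TGFA, which encodes TGF-α, occupies chromosome 2 between 70674416 and 70781325 (minus strand). Its promoter held 4 E2F1 peaks in 1825 bp, with fold enrichments of 4.97, 6.32, 8.41 and 9.22 in order of coordinate and pileups from 8 to 12, and no Fra-1 or MYC peak. The summit of the second strongest, with a fold enrichment of 8.41, was 5 bp from the canonical TSS. The largest value at this promoter (9.22) was reached by 87.1% of protein-coding genes with an E2F1 promoter peak. Inside the gene both Fra-1 peaks were below the median of the Fra-1 list (8.24). They had a fold enrichment of 6.37 at 28600 bp and of 5.98 at 82501 bp downstream of the canonical TSS, and each overlapped an E2F1 peak (9.12 and 4.15). Another E2F1 peak of the gene body, near the first of these, had a fold enrichment of 5.21. The Fra-1 peak of TGFA with the largest value was in the flank, from 70823530 to 70823696, 42640 bp upstream of the canonical TSS. It had a pileup of 38, a fold enrichment of 16.8 and a −log10 q of 37.7, and the E2F1 peak on it (fold enrichment 9.50) had its summit 3 bp away. Its AP-1 site, at 70823596 to 70823602, lay 1 bp from the Fra-1 summit and is shown in capitals, a choice made after the values were seen.
TGFA upstream flank, chr2:70823548-70823648: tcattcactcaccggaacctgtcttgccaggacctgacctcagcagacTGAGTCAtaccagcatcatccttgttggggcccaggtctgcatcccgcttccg
So at TGFA the single peak with an exact AP-1 site at its summit was also the strongest, although it was not in the gene.

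HBEGF encodes heparin-binding EGF-like growth factor and occupies chromosome 5 between 139712428 and 139726188 (minus strand). The gene itself held E2F1 peaks and no others. There were 3 of these in 2258 bp around the canonical TSS, with fold enrichments of 6.09 at 247 bp upstream, 9.14 at 592 bp downstream and 5.50 at 1632 bp downstream, and the largest was again low among promoters with E2F1 (reached by 87.4%). The Fra-1 peaks of HBEGF all lay past the 3′ end of the gene. The peak from 139691685 to 139691981, with its summit 20627 bp past the end, had a pileup of 43 and a fold enrichment of 12.8, with an E2F1 peak of 10.5 on it. A pair of Fra-1 peaks, with fold enrichments of 8.35 and 6.43, lay under a single E2F1 peak from 139702310 to 139703386, which also held the MYC peak described above. The first of this pair had a pileup of 49, the largest of the 3, but its recovered background was 4.99 fragments, against a median of 1.89 in the Fra-1 list. None of the 23 AP-1 sites in the territory of HBEGF lay in a Fra-1 peak, against 2.78% of sites on chromosomes 1 to 22 and X. In other ligand territories the counts were 1 of 30 at TGFA, 2 of 29 at EREG, 1 of 16 at BTC and 0 of 28 at EPGN. The remaining E2F1 peaks of HBEGF were 1 of 23.5 in the promoter window of the neighbouring gene PFDN1 and 1 of 4.97 between the genes.

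EPGN, EREG, AREG and BTC lie near each other on chromosome 4. EREG, which encodes epiregulin, is on the plus strand from 75230862 to 75254466 and had the strongest E2F1 promoter peak of the 8 genes. This peak ran from 75229939 to 75231236 with its summit 22 bp downstream of the canonical TSS, and had a pileup of 84, a fold enrichment of 31.6 and a −log10 q of 106. A value as large was found at 3281 of the 12321 protein-coding genes with an E2F1 promoter peak (26.6%). It was thus above the median of such genes (22.02), whereas the other 4 promoters, with 9.14 to 10.3, were below it. The bases just upstream of the TSS, which lie inside this peak, are shown because it is the strongest promoter peak of the genes, a choice made after the values were seen.
EREG upstream of the TSS, chr4:75230762-75230861: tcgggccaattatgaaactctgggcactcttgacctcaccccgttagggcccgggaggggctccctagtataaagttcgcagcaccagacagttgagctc
The other E2F1 peaks followed in the promoter window, with fold enrichments of 12.7, 6.21 and 3.77 at 810, 1215 and 1606 bp downstream of the TSS. In intron 1 a Fra-1 peak from 75240848 to 75240998, 10049 bp downstream of the TSS, had a pileup of 41 and a fold enrichment of 10.3, and overlapped 1 of 4 E2F1 peaks spread over 75240300 to 75242251 (fold enrichments 5.32, 3.25, 4.31 and 9.04). Past the end of the gene, at 75260637 to 75260765, a Fra-1 peak of 4.28 with an AP-1 site 10 bp from its summit overlapped an E2F1 peak of 3.03. Background was high over EREG. The median recovered background at its 9 E2F1 peaks was 3.77 fragments and the highest was 6.92, against a median of 0.996 and a 95th percentile of 3.95 over the E2F1 list. The part of the background in the values at EREG was not tested.

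AREG, which encodes amphiregulin, is on the plus strand from 75310853 to 75320722. No peak of any factor was called in its promoter windows or gene body, as for 31.8% of protein-coding genes. Few tags can be placed uniquely there. Of the words of 49 bases in its canonical promoter window, 8.22% occurred once in the GRCh37 genome, and in the gene body 7.09%. The tag length was 49 bases for Fra-1 and MYC and 48 for E2F1. A second copy of the gene, AREGB, is annotated in GRCh37 on chromosome 4 from 75480629 to 75490486. As uniquely mapping reads alone were kept by the authors, the lists cannot show whether the factors bind at AREG. In the other 7 genes, 94.6 to 100% of words in the canonical promoter window and 95.2 to 98.7% in the gene body were unique. Their territories ranged from 79.9% at EREG to 97.5% at EGFR. The territory of AREG was 63.2% unique, and its downstream flank held 3 Fra-1 and 2 E2F1 peaks. The strongest of them, a Fra-1 peak from 75338941 to 75339150, had its summit 28189 bp downstream of the canonical TSS, a pileup of 59, a fold enrichment of 18.0 and a −log10 q of 56.0, and ranked 1205 of 17320. An E2F1 peak of 7.86 overlapped it with the summits 18 bp apart. A Fra-1 peak of 12.6 at 58651 bp was overlapped by an E2F1 peak of 6.46, and a Fra-1 peak of 5.44 at 56568 bp had no other factor on it. None of the 20 AP-1 sites in this territory lay in a Fra-1 peak, against the same 2.78% of sites on chromosomes 1 to 22 and X.

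**Figure D3:**
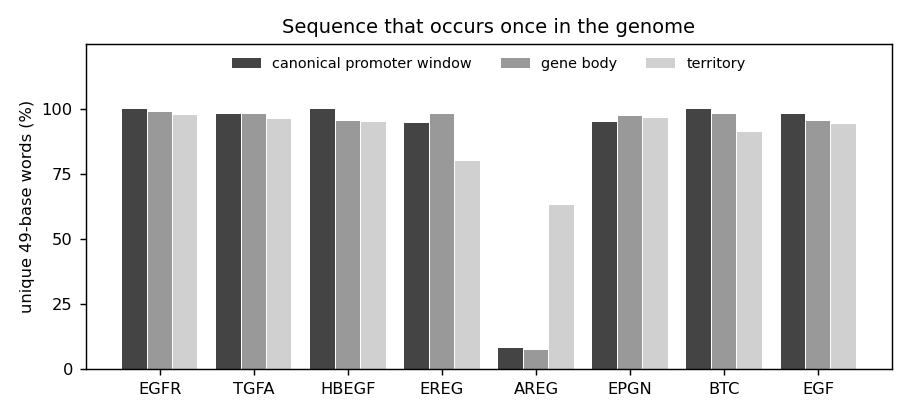
Share of 49-base words that occur once in the GRCh37 genome (vertical axis, percent) in the canonical promoter window, the gene body and the territory of each gene. The AREG promoter (8.22%) and gene body (7.09%) stand far below those of the other 7 genes, which are all above 94%. Among territories AREG is lowest (63.2%), followed by EREG (79.9%).

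EPGN, which encodes epigen, is on the plus strand from 75174187 to 75182506. It had no peak in promoter or gene body, and 95.05% of words in its canonical promoter window were unique. The 4 E2F1 peaks of its territory are the promoter peaks of EREG, so that no peak in these lists was particular to EPGN. BTC, which encodes betacellulin, is on the minus strand from 75669969 to 75719733. Its canonical promoter held 2 E2F1 peaks with fold enrichments of 9.68 and 6.91 and a pileup of 18 each. The Fra-1 peak of BTC, from 75694195 to 75694373, had a pileup of 30, a fold enrichment of 10.6 and a −log10 q of 21.6. It lay in intron 2, 1093 bp from an internal start site and 25460 bp from the canonical TSS, with the AP-1 site printed above 8 bp from its summit. No E2F1 peak overlapped it, unlike most Fra-1 peaks of these genes.

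**Figure D4:**
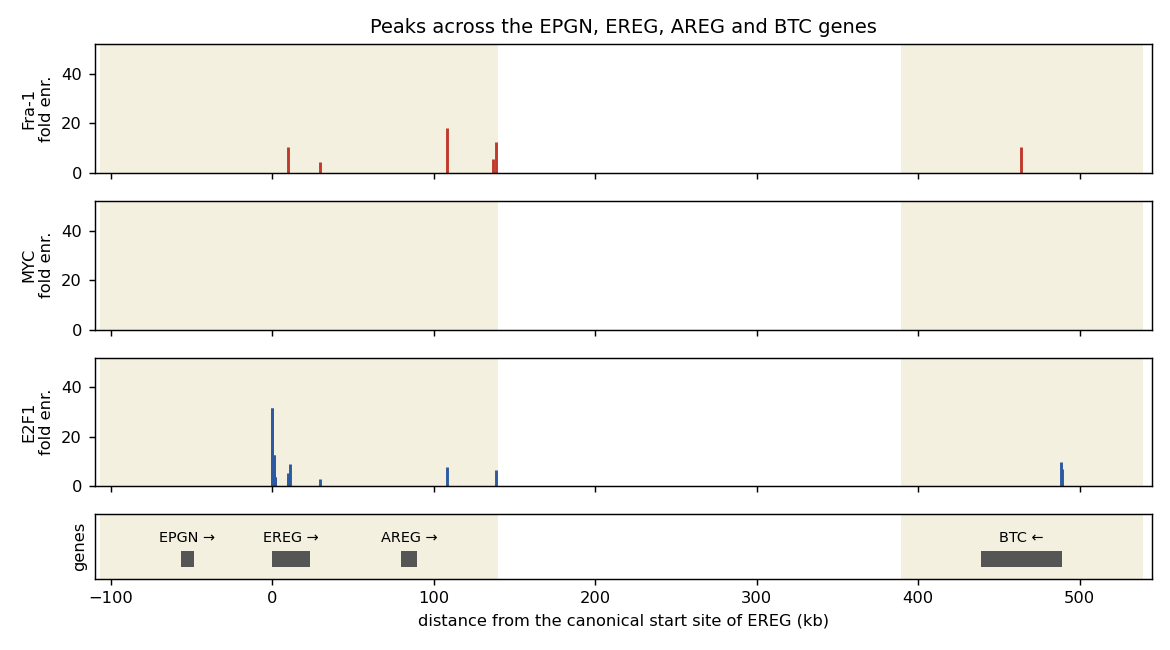
Fold enrichment of each called peak (vertical axis, linear) against distance from the canonical EREG start site in kb (horizontal axis) for Fra-1, MYC and E2F1, with genes as grey bars whose arrows show the strand. Peaks are drawn inside the shaded territories and not between them. The E2F1 line of 31.6 stands at the EREG start site, no line stands on AREG or EPGN, and the MYC panel is empty.

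EGF, on the plus strand of chromosome 4 from 110834039 to 110934922, had no peak of Fra-1, MYC or E2F1 in its whole territory of 201 kb. Protein-coding genes without any peak in their territory made up 14.3%. Of the words in the canonical promoter window of EGF 97.9% were unique, and the territory contained 34 AP-1 sites, of which 0 lay in a Fra-1 peak. On chromosomes 1 to 22 and X 2.78% of AP-1 sites did. Among the 3660 protein-coding genes of at least 100 kb, 40.9% had no Fra-1, 82.8% no MYC and 20.6% no E2F1 peak in promoter or gene body. Thus of the 8 genes EGFR had the most peaks in all and EGF the fewest.

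The peaks of the factors were next compared with each other. Overlapping peaks were joined into bound regions, of which there were 55 in the territories. E2F1 alone made up 33 of these, Fra-1 with E2F1 16, Fra-1 alone 4 and all 3 factors 2. Over the 43671 regions of the genome the corresponding shares were 53.9% for E2F1 alone, 21.4% for Fra-1 with E2F1, 15.2% for Fra-1 alone and 2.45% for all 3, against 60%, 29.1%, 7.27% and 3.64% at these genes. Regions of MYC with E2F1 but without Fra-1 made up 6.64% in the genome and were absent here. Many of the regions of E2F1 alone were neighbours in a promoter, and when peaks within 1 kb were joined their number fell from 33 to 12. Regions of Fra-1 with E2F1 went from 16 to 15. The genome shares above are for regions without this joining and cannot be set against these counts. Of the 24 Fra-1 peaks, 20 overlapped an E2F1 peak (83.3%, 64.1 to 93.3%), against 61.5% (60.8 to 62.2%) in the whole list. With reciprocal overlap of 50% there were 13 (54.2%). The share of the whole list under this stricter rule was not computed, so 54.2% cannot be set against 61.5%. The summits of these 20 pairs were a median of 29.5 bp apart, and 15 were within 50 bp, close to the median of 32 bp over all 10651 such Fra-1 peaks. Seen from E2F1, position in the gene separated the peaks. In promoter windows of the gene itself 1 of 20 E2F1 peaks overlapped a Fra-1 peak (5.00%, 0.888 to 23.6%), whereas outside them 17 of 31 did (54.8%, 37.8 to 70.8%). Peaks in promoter windows of other genes, such as ELDR and PFDN1, were here counted as outside. In the whole E2F1 list, with promoter windows of any gene, the shares were 13.4% (13.0 to 13.8%) in promoter windows and 60.01% (59.1 to 60.9%) outside. The definitions differ, so these shares cannot be set directly against those of the genes studied here. The E2F motif (TTT, a pair of bases that are each G or C, then CGC, on both strands) was found at 0 of 51 E2F1 summits (interval 0 to 7.00%), and at 1.68% (1.55 to 1.81%) in the whole list. An AP-1 site lay at 5 of the 51 (9.80%, 4.26 to 21.0%), of which 4 were at peaks that overlapped Fra-1. In the whole E2F1 list the share with an AP-1 site was 12.2% (11.8 to 12.5%).

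**Figure D5:**
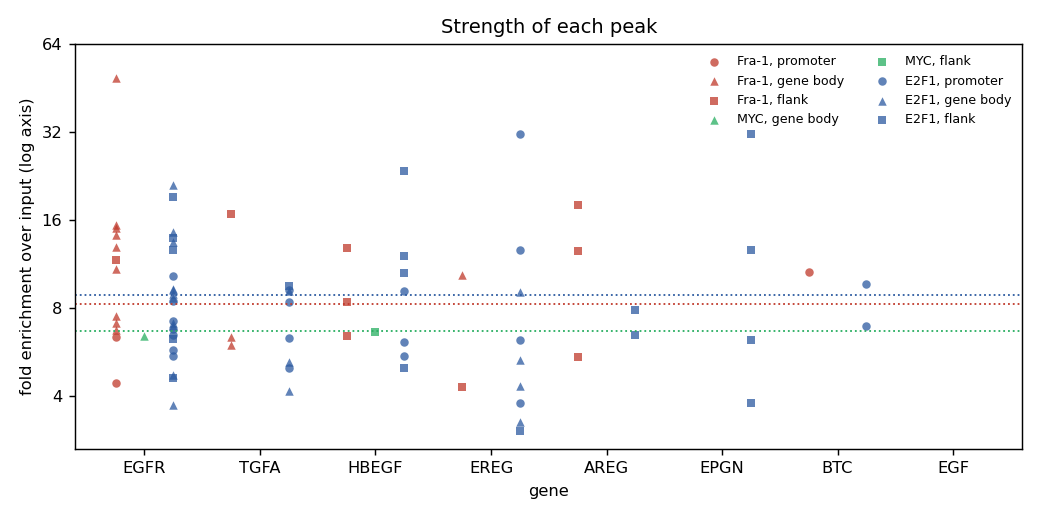
Fold enrichment over input of every called peak (vertical axis, log2-spaced) at each gene (horizontal axis), in red for Fra-1, green for MYC and blue for E2F1, with circles for promoter, triangles for gene body and squares for flank peaks. Dotted lines are the medians of the whole lists (8.24, 6.67 and 8.88). The Fra-1 peak of 49.01 at EGFR and the E2F1 peak of 31.6 at EREG, drawn again for EPGN, stand apart, and most E2F1 circles lie at or below the blue line.

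In strength, Fra-1 and E2F1 were each set against their own list. Fra-1 peaks had a median fold enrichment of 10.5 (range 4.28 to 49.01), and 14 of 24 were above the median of the whole Fra-1 list (8.24). E2F1 peaks had a median of 7.23 (3.03 to 31.6), and 21 of 51 were above that of the E2F1 list (8.88). Each list was also reduced to the number of peaks in the MYC list, keeping the largest −log10 q. This kept 4867 of 17320 Fra-1 peaks and 4867 of 36933 E2F1 peaks, and so removed most E2F1 peaks by construction. In the territories 12 of 24 Fra-1 peaks and 1 of 51 E2F1 peaks were left, and the latter was the promoter peak of EREG. Over all 24 Fra-1 and 51 E2F1 peaks, median recovered background was 1.97 and 1.27 fragments, against 1.89 and 0.996 over the lists. Of the 51 E2F1 peaks, 31 were above the E2F1 list median.

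Other genes of the pathway were compared by promoter peaks, in lists made by function. The background is the share of all protein-coding genes. Of the other receptors and ligands of the family (ERBB2, ERBB3, ERBB4, NRG1, NRG2, NRG3 and NRG4), 4 of 7 had an E2F1 (background 61.3%), 3 a Fra-1 (13.2%) and 0 a MYC (17.8%) promoter peak. ERBB4, NRG3 and NRG4 had none of any factor. Among the genes of ligand shedding (ADAM10, ADAM17, RHBDF1 and RHBDF2), which encode the proteases that release the ligands and the inactive rhomboids that carry ADAM17 to the surface, 4 of 4 had E2F1, 3 Fra-1 and 0 MYC, against the same 61.3%, 13.2% and 17.8%. Among 10 adaptors and regulators at the receptor (GRB2, SHC1, SOS1, GAB1, EPS8, CBL, CBLB, ERRFI1, LRIG1 and SOCS5), 10 had E2F1, 3 Fra-1 and 1 MYC, again against 61.3%, 13.2% and 17.8%. The one with MYC was SOS1, which encodes an exchange factor for RAS. No gene of the 3 lists or of the 8 genes had promoter peaks of all 3 factors, which 4.67% of protein-coding genes had. E2F1 promoter strength again differed within the family, with a largest fold enrichment of 39.2 at ERBB2, 18.7 at ERBB3, 13.6 at NRG1 and 7.71 at NRG2, beside 10.3 at EGFR.

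The protein-coding genes whose pattern was most like that of EGFR were MICAL2, ARHGEF3 and NAV2. Likeness was the distance over 6 values, the number of peaks in promoter or gene body and the largest fold enrichment for each of the 3 libraries on a log2 scale, and was 0.827, 1.00 and 1.03 in this order. MICAL2 had 13 Fra-1, 2 MYC and 17 E2F1 peaks, with largest fold enrichments of 35.1, 7.85 and 21.1. All 3 genes are longer than EGFR (193 kb), at 265, 352 and 771 kb.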

How the data were processed

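Peaks from ChIP-Seq of 3 factors in LM2 cells were used, 1 library each. According to the methods and the submitters' processing notes, Trimmomatic 0.27 was used by the authors for trimming and Bowtie 0.12.5 for alignment to hg19 in masked form. Reads with more than 1 location and duplicates were discarded. They called peaks per library, unpooled, with MACS2 2.0.10 with 1 input as control (q-value cutoff 0.01). The deposited lists hold the pileup signal at the summit after scaling of the larger library, the fold enrichment as a ratio to local background with a pseudocount of 1, and −log10 p- and q-values, as deposited by the authors. Background, in fragments at the summit, was recovered here as pileup plus 1, divided by fold enrichment, minus 1, since the pseudocount enters both terms. It is approximate because pileups are deposited as whole numbers. What was masked is not given in the sources used here, and the count of unique words does not allow for it.

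Genes were taken from GENCODE 44 mapped to GRCh37, whose sequence is that of hg19. Overlap was counted from 1 bp. Percentages of protein-coding genes are the same counts over all 20098 genes. The search for motifs covered 50 bp to each side of a summit. The members, lists and rules were chosen with earlier results of these data known, and words 1 base from an AP-1 site and canonical start sites were added after values were seen. On other sequences than chromosomes 1 to 22 and X lay 51 peaks, which were left out of overlap and motif counts. All promoter peaks were named, and of other peaks of a gene and factor all up to 6, otherwise the 5 with the largest fold enrichment. Results were recomputed with other thresholds, windows, flanks and overlap rules. The counting steps were tested on simulated peaks. Scripts ran in Python 3.11.15 (scipy 1.17.1, pandas 2.3.3, numpy 2.4.6), and plots were drawn with matplotlib 3.10.9.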

Additional observations from a re-analysis of the deposited data

How the results depend on the processing

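No paired analysis was possible because each factor has 1 library, and for the same reason no replicate could be left out. Of 114 recomputed values, 92 stayed within 1.5 times the count or within the interval of the share, among them all 23 with a fold enrichment of at least 5. Some of these values, such as the promoter peaks of MYC, were 0 as reported and could not change under a stricter cutoff. With equal numbers of peaks 15 of 20 values moved. Promoter peaks were then 0 for Fra-1 and 1 for E2F1 in place of 3 and 20, at 0 and 1 genes. Territories held 12 Fra-1 peaks and 1 E2F1 peak, and promoters with gene bodies 7 and 1. Regions were 11 of Fra-1 alone, 1 of MYC alone, 1 of E2F1 alone, 1 of Fra-1 with MYC, 0 of Fra-1 with E2F1 and 0 of all 3 factors, and 0 of the 12 Fra-1 peaks overlapped E2F1. This restriction removes most E2F1 peaks by construction. With −log10 q of at least 5, 1 MYC peak and 1 region of all 3 factors remained. Flanks of 100 kb gave 5 MYC peaks in place of 2. Joining peaks within 1 kb gave 12 regions of E2F1 alone. Reciprocal overlap of 50% lowered the share of Fra-1 peaks with E2F1 to 54.2%. With canonical start sites, a setting chosen after seeing the data, Fra-1 promoter peaks were 0, at 0 genes. After filtering the input held 10758036 tags, fewer than any of the 3 factor libraries, and the effect of its depth on the calls was not tested.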

Other observations

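Among the related genes, NRG1, which encodes a ligand of ERBB3 and ERBB4, had 16 Fra-1 and 17 E2F1 peaks in its territory, more than any of the 8 genes except EGFR in E2F1, and no Fra-1 or MYC promoter peak. These are raw counts, longer territories can hold more peaks, and the density of peaks at NRG1 was not compared. ERBB3, the receptor that pairs with ERBB2, had 7 MYC peaks in its territory and none in its promoter windows. Whether these peaks lay in promoter windows of neighbouring genes was not examined. NRG1 and ERBB3 were picked out after their values were seen. The flanks of AREGB, the second copy of AREG in GRCh37, held 1 Fra-1 peak and no MYC or E2F1 peak.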
